A study of Mus musculus with 6 samples.

Results

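NADPH is the reduced cofactor that cells spend on fatty acid and sterol synthesis and on keeping glutathione and thioredoxin reduced. Cytosolic NADPH comes mainly from the oxidative branch of the pentose phosphate pathway, from malic enzyme and from the cytosolic isocitrate dehydrogenase Idh1, while Idh2 and the transhydrogenase Nnt supply the mitochondria. Epidermal keratinocytes make barrier lipids and face oxygen at the body surface, and both tasks draw on this cofactor. The genes described here are 9 enzymes of this supply and of the connected pentose phosphate pathway, of which Pgls, Tkt and Taldo1 release no NADPH themselves, of 30386 genes in the deposited table: Idh1, Idh2, Me1, G6pdx, Pgd, Pgls, Tkt, Taldo1 and Nnt. They were chosen by enzyme function, with earlier results of these data known, except Idh1, which was picked from its measured rise in the knockout. The difference of Idh1 is therefore given as a description without a test.

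The study measured mRNA in back skin epidermis of mouse embryos shortly before birth (E18.5) by sequencing from the 3' ends of transcripts. The groups were 3 libraries of the genotype labelled p63alphaKO and 3 wild-type (WT) libraries. p63 is the master transcription factor of stratified epithelia, and its alpha isoforms carry the long carboxy terminus; the name of the genotype says that these are lost, and the sources used here do not give the strain or how the allele was made. The labels do not say that replicates came from separate embryos. The p-values therefore set each difference only against the spread between these libraries, which may be in part technical.

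Before the members, the libraries differed in what they held besides keratinocytes. Depth was 3350442 to 3539604 reads in the p63alphaKO libraries and 2564407 to 4474764 reads in the WT libraries. Trp63, the gene of p63, was at 136 to 146 CPM (reads of a gene scaled to the total of its library) in p63alphaKO and at 63.9 to 87.2 CPM in WT, and a count per gene cannot show which isoforms were made. The 5 basal, 4 spinous and 5 granular keratinocyte markers were abundant in all 6 libraries. Marker lists of fibroblasts, skeletal muscle and red blood cells together took 0.0970% to 0.212% of reads in p63alphaKO and 0.604% to 0.843% in WT. In such bulk samples fewer cells of a type and less RNA per cell cannot be told apart. Mitochondrially encoded transcripts took 1.44% to 1.55% of reads in p63alphaKO and 1.78% to 2.21% in WT.

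Idh1, which oxidises isocitrate to 2-oxoglutarate in the cytosol and peroxisomes with NADPH as a product, was at 158, 130.5 and 93.7 CPM in p63alphaKO replicates 1, 2 and 3, against 24.2, 36.2 and 57.0 CPM in WT replicates 1, 2 and 3. These levels rest on 314 to 558 reads per p63alphaKO library and 62 to 181 reads per WT library. The lowest p63alphaKO library lay above the highest WT library, and the spread within each genotype was wide, with a coefficient of variation of 25.2% in p63alphaKO and 42.5% in WT. The means were 127 ± 32.1 CPM in p63alphaKO and 39.1 ± 16.6 CPM in WT (SD, n = 3 each), a ratio of 3.25. On the log2(CPM + 1) scale used throughout for fold changes (p63alphaKO over WT), which shrinks differences at low levels, the difference was 1.73 (SE 0.28), the value at rank 15 from the top among 7464 genes tested. It was 1.43 without WT replicate 1 and 2.04 without WT replicate 3. This is the measure for which the gene was picked, so its size supports nothing further here.

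Idh1 lies on chromosome 1 (65158616 to 65186500, minus strand, mm10), and no annotated exon of another gene overlaps its exons. The sequences around its starts are shown because it is the member picked for its rise. Beside them stand that of Idh2, which makes the enzyme of the same reaction in mitochondria, and that of Me1, which holds a searched motif. Each runs from 250 bases before to 50 bases after an annotated start (RefSeq, GRCm38.p6). Idh1 has a pair of such windows, at chr1:65186430-65186729 and chr1:65179093-65179392, Idh2 has 1 at chr7:80115301-80115600, and the Me1 window shown is at chr9:86695865-86696164, all on the minus strand. Capitals mark the core of the antioxidant response element, the site of the factor NRF2, searched as TGACNNNGC on both strands.
Idh1, first window: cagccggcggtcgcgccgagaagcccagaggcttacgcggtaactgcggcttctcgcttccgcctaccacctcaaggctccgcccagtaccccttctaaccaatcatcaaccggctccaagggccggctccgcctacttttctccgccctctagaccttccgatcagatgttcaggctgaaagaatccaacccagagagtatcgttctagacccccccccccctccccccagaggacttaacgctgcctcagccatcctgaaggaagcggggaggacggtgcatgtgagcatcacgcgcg
Idh1, second window: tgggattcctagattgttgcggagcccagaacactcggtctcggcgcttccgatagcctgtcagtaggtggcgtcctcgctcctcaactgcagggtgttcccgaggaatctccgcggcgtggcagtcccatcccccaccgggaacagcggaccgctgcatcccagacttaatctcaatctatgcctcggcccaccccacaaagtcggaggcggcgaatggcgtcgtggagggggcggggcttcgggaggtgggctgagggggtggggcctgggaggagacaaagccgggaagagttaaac
Idh2: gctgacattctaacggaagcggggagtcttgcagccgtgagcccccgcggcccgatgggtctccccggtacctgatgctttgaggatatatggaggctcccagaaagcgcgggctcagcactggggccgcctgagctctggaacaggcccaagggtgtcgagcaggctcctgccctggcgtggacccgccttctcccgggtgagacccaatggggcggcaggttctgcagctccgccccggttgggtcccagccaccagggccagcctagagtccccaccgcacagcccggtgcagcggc
Me1: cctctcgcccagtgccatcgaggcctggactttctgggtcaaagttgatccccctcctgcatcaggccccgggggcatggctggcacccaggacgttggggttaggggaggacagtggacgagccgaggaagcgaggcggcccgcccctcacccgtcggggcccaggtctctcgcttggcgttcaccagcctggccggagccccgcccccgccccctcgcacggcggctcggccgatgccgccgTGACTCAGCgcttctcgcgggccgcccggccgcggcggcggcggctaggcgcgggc

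The Idh1 windows held 62.0% and 63.7% G and C, and the Idh2 window 68.3%, against a median of 52.7% over all 32851 promoter windows of the table. None of these 3 windows held that core, the E-box CACGTG or the p53-family half-site, each searched on both strands. Windows were found for 8 members, 11 windows in all. Of these 11, 3 held the antioxidant core, which was present in 12.4% of all windows. They belonged to Me1, where the match begins at -6 relative to the start, to G6pdx at -57 and to Pgd at 3. The p53-family half-site was in 1 of the 11, that of G6pdx, and in 8.36% of all windows, and the E-box in 0 of 11 and 7.15% of all windows. The site in G6pdx and its antioxidant core do not overlap. A match describes letters only, and the absence of a match says nothing about whether a factor binds.

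Idh2, the mitochondrial counterpart (chromosome 7, 80094846 to 80115392, minus strand), did not follow Idh1. It was at 52.0, 68.7 and 64.4 CPM in p63alphaKO replicates 1, 2 and 3, against 59.6, 81.3 and 93.2 CPM in WT replicates 1, 2 and 3, and the groups overlapped. The fold change was -0.32 on the log2 scale (SE 0.22, 95% interval -0.79 to 0.15, adjusted p = 0.531). The ratio of Idh1 to Idh2 was therefore 3.03, 1.90 and 1.45 in p63alphaKO replicates 1, 2 and 3, against 0.405, 0.445 and 0.611 in WT replicates 1, 2 and 3. Reads come from 3' ends, so a transcript is not counted more often for being long. How completely each gene was counted was not tested, so levels of different genes are compared here as counts only. As counted, Idh1 lay above Idh2 in every p63alphaKO library and below it in every WT library. This ratio carries the rise for which Idh1 was picked and is no separate result.

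**Figure D1:**
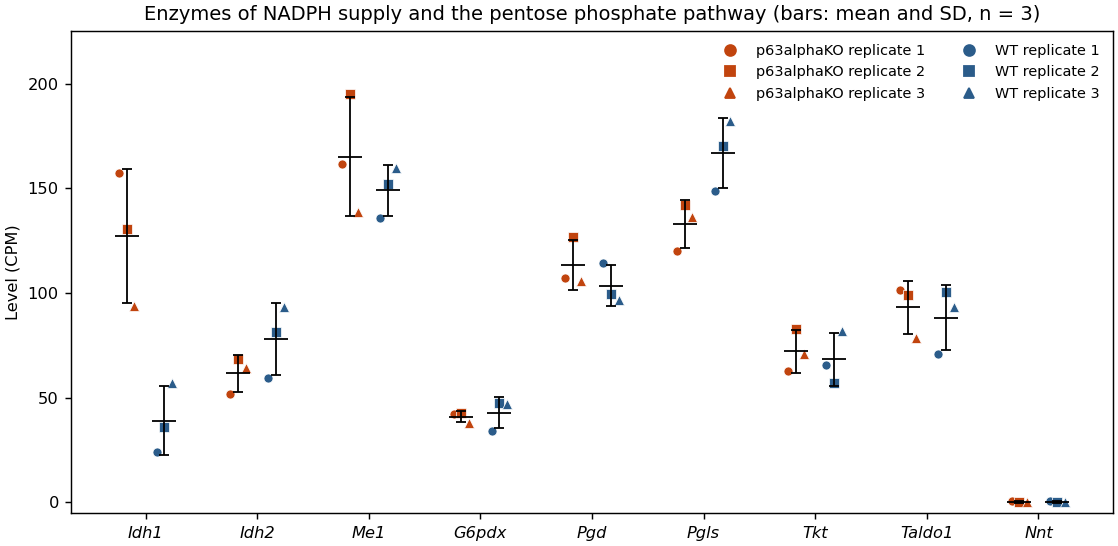
Level in CPM (vertical axis, linear) of the 9 enzymes of NADPH supply and the pentose phosphate pathway in each library, p63alphaKO left of WT for each gene; symbols are replicates, and black bars give the mean and SD of 3 libraries. Idh1 averaged 127 CPM in p63alphaKO and 39.1 CPM in WT; the p63alphaKO and WT libraries of Pgls did not overlap, those of the other 6 members tested did, and Nnt was near 0.

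Me1, the cytosolic malic enzyme, which turns malate into pyruvate and releases NADPH, had the highest mean of the members over all 6 libraries. It was at 161, 195 and 139 CPM in p63alphaKO replicates 1, 2 and 3, against 136, 152 and 159.6 CPM in WT replicates 1, 2 and 3. The ranges overlapped, and the fold change was 0.14 (SE 0.18, 95% interval -0.25 to 0.52, adjusted p = 0.780). Me1 is on chromosome 9 (86581371 to 86695953, minus strand), where 30 bases of its exons overlap A330041J22Rik on the other strand. The ratio of Idh1 to Me1 was 0.669 to 0.975 in p63alphaKO and 0.178 to 0.357 in WT, and it too carries the rise for which Idh1 was picked.

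The oxidative branch of the pentose phosphate pathway, where glucose 6-phosphate is oxidised and NADPH is released at the first and the last of its steps, showed no member past the test. G6pdx, the glucose 6-phosphate dehydrogenase that opens the pathway, was at 42.4, 42.5 and 38.2 CPM in p63alphaKO replicates 1, 2 and 3, against 34.3, 47.6 and 46.9 CPM in WT replicates 1, 2 and 3. Its fold change was -0.051 (SE 0.22, 95% interval -0.53 to 0.43, adjusted p = 0.949), and the sign turned with trimmed-mean scaling (0.054). G6pdx is X-linked (chromosome X, 74409483 to 74429194, minus strand) and shares 418 exon bases with Ikbkg on the other strand; whether counting used strand is not stated, so reads of such pairs may not be told apart. The X-inactivation transcript Xist was at 473 CPM in p63alphaKO replicate 2 and 683 CPM in WT replicate 2, and at most 3.11 and 3.78 CPM in the other libraries of p63alphaKO and WT; 4 Y-linked transcripts summed to 1.45 and 5.14 CPM in those same replicates 2, and to 143 CPM or more elsewhere. Each genotype thus held 1 library with Xist, and in both it was the library with the highest G6pdx, by under 1 CPM.

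Pgls, the lactonase of the middle step, gave the lowest fold change among the members tested. It was at 120.0, 142 and 136 CPM in p63alphaKO replicates 1, 2 and 3, against 149, 170.1 and 182 CPM in WT replicates 1, 2 and 3. Every p63alphaKO library lay below every WT library, with a fold change of -0.33 (SE 0.17, 95% interval -0.70 to 0.042), and the gene did not pass the test (adjusted p = 0.390). On chromosome 8 (71592176 to 71601092, plus strand) Pgls shares 776 of 3770 exon bases with Fam129c on the same strand, and reads falling there cannot be assigned to either. Pgd, which releases the second NADPH of the branch and a pentose phosphate, was at 107, 127 and 106 CPM in p63alphaKO replicates 1, 2 and 3, against 115, 99.6 and 96.7 CPM in WT replicates 1, 2 and 3. Its groups overlapped, and the fold change of this chromosome 4 gene (149149991 to 149166771, minus strand) was 0.13 (SE 0.18, 95% interval -0.26 to 0.51, adjusted p = 0.797). Together the 3 enzymes summed to 270 to 312 CPM in p63alphaKO and 298 to 325 CPM in WT.

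In the non-oxidative branch, where pentose phosphates are turned back into glycolytic sugars, the groups overlapped for both enzymes. Tkt, the transketolase, was at 62.7, 82.7 and 71.0 CPM in p63alphaKO replicates 1, 2 and 3, against 65.8, 57.2 and 81.9 CPM in WT replicates 1, 2 and 3. Its fold change was 0.084 (SE 0.21, 95% interval -0.36 to 0.53, adjusted p = 0.898). Taldo1, the transaldolase, was at 102, 99.3 and 78.4 CPM in p63alphaKO replicates 1, 2 and 3, against 70.9, 100.7 and 93.2 CPM in WT replicates 1, 2 and 3. Its fold change was 0.082 (SE 0.20, 95% interval -0.35 to 0.52, adjusted p = 0.896). The signs of Tkt and Taldo1 turned when single libraries were left out, Tkt to -0.035 without WT replicate 2 and Taldo1 to -0.066 without WT replicate 1. Tkt lies on chromosome 14 (30548359 to 30574720, plus strand) and Taldo1 on chromosome 7 (141392199 to 141402968, plus strand).

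Nnt, the inner membrane transhydrogenase that makes NADPH from NADH in mitochondria, was almost without reads. It had 2 reads in p63alphaKO replicate 1 and 2 reads in WT replicate 1, and 0 reads in the other 4 libraries. All 6 values lie below what 3 reads stand for, which was 0.847 to 0.895 CPM in p63alphaKO and 0.670 to 1.17 CPM in WT, a limit for counting error only. Nnt was under the minimum mean for testing, and no fold is given. The annotation used here holds a second gene model named Nnt, which shares 3339 of the 7037 exon bases of the first on the same strand of chromosome 13 (119335448 to 119408997); it has no row among the 30386 genes. As background, the C57BL/6J strain carries a deletion of several Nnt exons. Whether strain or gene models bear on the low value was not tested.

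Among the 8 members other than Idh1, 7 had the minimum mean of 10 CPM for testing. By limma 0 of these 7 were called (adjusted p under 0.05), 0 were under 0.05 before adjustment (15.6% of all genes tested were), and edgeR and DESeq2 on the recovered reads likewise called 0 and gave 0 before adjustment. Over all genes tested, 1.65% were called, 0.469% higher and 1.18% lower. Of the 7 members 4 had positive and 3 negative fold changes, with a median of 0.082, against a median of -0.085 over all genes tested. Their 95% intervals together ran from -0.79 to 0.53, which is 0.579 to 1.45 times the WT level. The groups did not overlap for 1 of the 7 (14.3%, Pgls), against 21.0% of all genes tested. Scaling by trimmed means or upper quartiles moved the median of all genes by 0.10 and 0.13, to 0.018 and 0.048, and the higher share of all calls from 28.5% to 42.5% and 51.9%; the fold changes of the members rose with it, to 1.83 and 1.86 for Idh1.

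**Figure D2:**
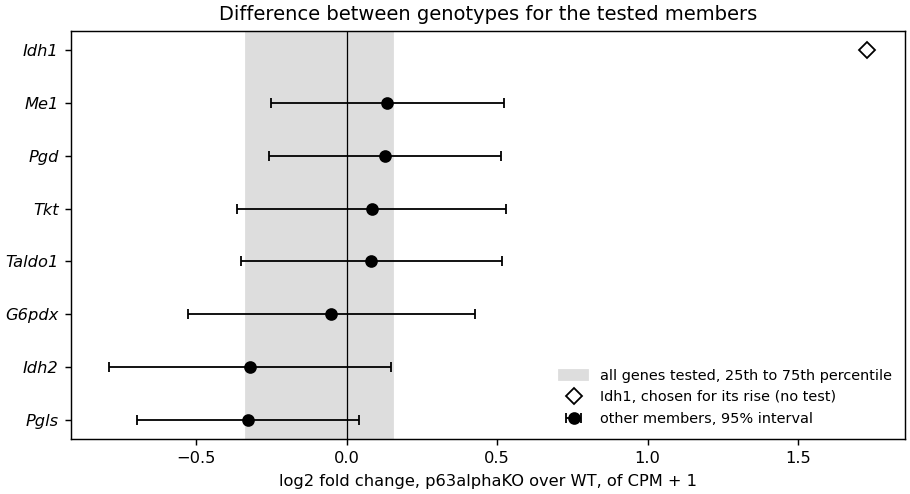
Log2 fold change of CPM + 1, p63alphaKO over WT (horizontal axis), for the 8 members with a mean of at least 10 CPM; filled points have 95% intervals from limma, the open diamond is Idh1 without a test, and the grey band spans the 25th to 75th percentile of all genes tested (-0.33 to 0.15). Idh1 stands at 1.73, and the intervals of the other 7 members all include 0.

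The order of the levels, as counted, differed between the genotypes mainly through Idh1. Since Idh1 was picked for its rise in these libraries, its change of place and of share follows from that choice and is no separate result. In p63alphaKO it ran Me1, Pgls, Idh1, Pgd, Taldo1, Tkt, Idh2 and G6pdx, with means of 165 CPM for Me1 and 41.0 CPM for G6pdx at its ends. In WT it ran Pgls, Me1, Pgd, Taldo1, Idh2, Tkt, G6pdx and Idh1, with means of 167 CPM for Pgls and 39.1 CPM for Idh1 at its ends. Neighbours in these orders overlapped in their ranges, except Pgd above Taldo1 and Idh2 above G6pdx in p63alphaKO and Me1 above Pgd and Tkt above G6pdx in WT. Idh1 made up 12.9% to 19.6% of the summed level of the 9 genes in p63alphaKO and 3.69% to 7.03% in WT. Without Idh1 the sum was 633 to 757 CPM in p63alphaKO and 631 to 753 CPM in WT, so the summed level of the other 8 lay in nearly the same range in both genotypes.

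Idh1 was also set against the cell types the libraries held. The summed level of 4 melanocyte markers (Pmel, Mlana, Dct and Tyrp1) was 438, 410.0 and 303 CPM in p63alphaKO replicates 1, 2 and 3, against 174, 257 and 293 CPM in WT replicates 1, 2 and 3. Dct, a pigment enzyme named here after its values were seen, made up 79.1% to 85.1% of this sum in p63alphaKO and 75.3% to 83.4% in WT. Over the 6 libraries the sum and Dct had the same order as Idh1, and the other 3 markers did not. Pmel, a melanosome protein, was at 49.1, 61.4 and 34.9 CPM in p63alphaKO replicates 1, 2 and 3, against 35.9, 43.3 and 36.8 CPM in WT replicates 1, 2 and 3, so the groups overlapped. Mlana was highest in WT replicate 2 (8.48 CPM) and Tyrp1 in p63alphaKO replicate 2 (16.02 CPM). Of the 4 markers 2 reached the minimum for testing and 0 were called by limma. Per 100 CPM of these markers Idh1 was at 30.9 to 36.0 CPM in p63alphaKO and 13.9 to 19.4 CPM in WT, a ratio that carries the rise for which Idh1 was picked. The part of melanocytes in the Idh1 levels was not tested.

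Of the basal, spinous and granular keratinocyte markers 0 were called by limma, beside 1.65% of all genes tested. The genotypes did not overlap for Col17a1, Itga6, Lor, Asprv1 and Cnfn, all higher in p63alphaKO (21.0% of all genes tested did not overlap). Outside these lists limma called the keratins Krt15 (-1.80, adjusted p = 0.00164) and Krt77 (1.87, adjusted p = 0.000219). These genes are named after their values were seen, and the lists do not stand for every keratinocyte gene. The 5 basal markers summed to 4043 to 5086 CPM in p63alphaKO and 2537 to 4424 CPM in WT. Idh1 per 1000 CPM of them was 20.5 to 32.3 CPM in p63alphaKO and 8.18 to 14.0 CPM in WT. This ratio carries the rise for which Idh1 was picked, so its lack of overlap is no separate result. The 4 spinous markers summed to 73720 to 89210 CPM in p63alphaKO and 74350 to 94400 CPM in WT, and the 5 granular markers to 39850 to 52520 CPM in p63alphaKO and 36920 to 43200 CPM in WT. Lists lower in p63alphaKO were those of fibroblasts (288 to 590.0 CPM in p63alphaKO, 2063 to 4701 CPM in WT, 5 of 6 tested called), skeletal muscle (39.8 to 65.5 CPM in p63alphaKO, 289 to 2069 CPM in WT, 4 of 5 called) and red blood cells (559 to 1766 CPM in p63alphaKO, 1903 to 3440 CPM in WT, 3 of 4 called). The 6 adipocyte markers summed to 4.17 to 13.1 CPM in p63alphaKO and 20.3 to 47.5 CPM in WT, with Adipoq and Cidec at 0 in all 3 p63alphaKO libraries. The 4 endothelial markers summed to 2.39 to 4.95 CPM in p63alphaKO and 5.97 to 36.6 CPM in WT, and the 5 immune markers to 4.77 to 11.3 CPM in p63alphaKO and 7.41 to 13.2 CPM in WT. No gene of the adipocyte, endothelial or immune list reached the minimum for testing.

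The genes whose profile over the 6 libraries lay nearest to that of Idh1 were Ociad2, Hoxc6, Sh3rf1, Slc24a5 and Grm4. Likeness was the root mean square difference of log2(CPM + 1) after each gene's own mean was subtracted, and it was 0.22 for Ociad2, 0.33 for Hoxc6, 0.36 for Sh3rf1, 0.36 for Slc24a5 and 0.37 for Grm4, against a median of 1.01 over the other 7463 genes tested. Idh1 was picked for its rise in these same libraries, so genes near it are higher in p63alphaKO by construction. Their means below describe that choice and are no separate result. None of the 5 was called by limma, and the groups of Slc24a5 overlapped. WT replicate 1 held 6 to 17 reads of each. All 5 had lower counts than Idh1. Ociad2 averaged 30.5 CPM in p63alphaKO and 11.9 CPM in WT, Sh3rf1, a scaffold protein with ubiquitin ligase activity, 27.3 CPM in p63alphaKO and 9.54 CPM in WT, and Grm4, a metabotropic glutamate receptor, 20.6 CPM in p63alphaKO and 6.33 CPM in WT. Hoxc6, a homeobox gene, averaged 20.3 CPM in p63alphaKO and 8.67 CPM in WT, and Slc24a5, an ion exchanger known from the melanosomes of pigment cells, 18.47 CPM in p63alphaKO and 6.91 CPM in WT. Slc24a5 shares 921 exon bases with Myef2 and Sh3rf1 130 with Gm10015, both on the other strand. The nearest of the other members was Me1 at 0.86, at rank 1113 of those genes, and the farthest was Pgls at 1.09.

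**Figure D3:**
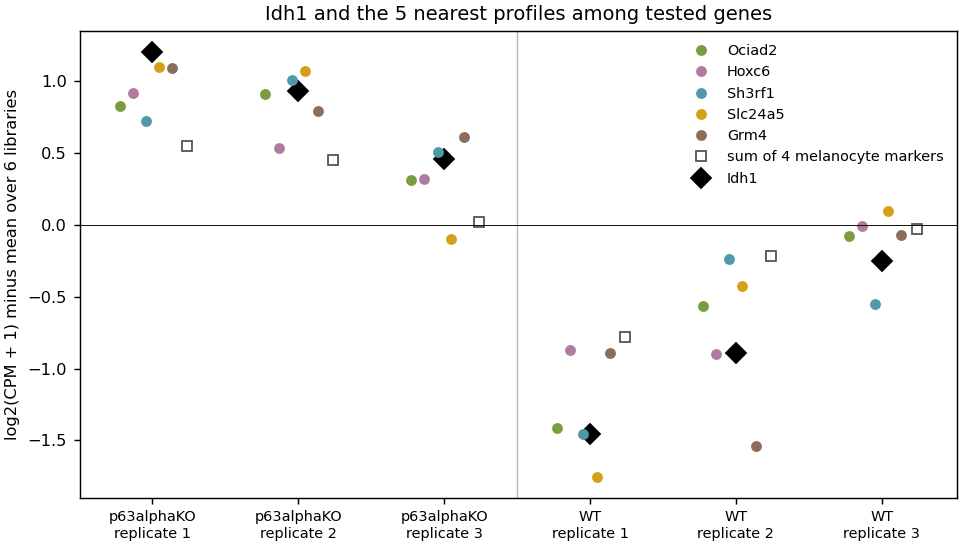
Profile over the 6 libraries (p63alphaKO left, WT right) of Idh1, the 5 tested genes nearest to it and the sum of 4 melanocyte markers, as log2(CPM + 1) minus its mean over the 6 libraries. Idh1 (black diamonds) is highest in p63alphaKO replicate 1 and lowest in WT replicate 1, as is the melanocyte sum (open squares), which is mostly Dct and spans a narrower range.

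The pathways around these enzymes were followed in 7 lists of related genes, also chosen with earlier results of these data known. The counts in each list stand beside shares over all genes tested by limma. Of those, 1.65% were called and 15.6% were under 0.05 before adjustment. Of the same 7464 genes edgeR called 82 and DESeq2 called 317, so limma's shares are no measure for their counts. No share before adjustment is given here for edgeR or DESeq2. The 12 other NADPH-linked dehydrogenases, which include the folate enzymes and the NAD kinases, had 5 members tested and 0 called by limma (0 before adjustment; 1 before adjustment and 0 called by edgeR and by DESeq2). Mthfd2, the mitochondrial folate dehydrogenase, was at 28.8, 41.4 and 63.8 CPM in p63alphaKO replicates 1, 2 and 3, against 23.4, 39.1 and 20.2 CPM in WT replicates 1, 2 and 3 (fold change 0.66, adjusted p = 0.328). Its cytosolic relative Mthfd1 had a value of 0.52 (adjusted p = 0.619). Glud1, the glutamate dehydrogenase, averaged 51.0 CPM in p63alphaKO and 68.9 CPM in WT without overlap (-0.43, adjusted p = 0.345). The mitochondrial malic enzymes Me2 and Me3 were at no more than 3.12 CPM in any library.

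The list of 11 other genes of the pentose phosphate pathway or next to it had 5 members tested. All 5 had negative fold changes, with a median of -0.33. By limma 0 were called (1 before adjustment), and by edgeR and DESeq2 0 either way. Rpe, the epimerase that links the branches, was at 15.0, 11.1 and 11.9 CPM in p63alphaKO replicates 1, 2 and 3, against 20.3, 19.9 and 20.8 CPM in WT replicates 1, 2 and 3 (-0.65, adjusted p = 0.318). It shares 558 exon bases with Kansl1l on the other strand. Prps1, which makes the activated ribose for nucleotides, had a value of -0.38 (adjusted p = 0.539). Pgm2, a phosphoglucomutase gene on chromosome 4 whose product is not a pentose phosphate enzyme, stood at -0.33 (adjusted p = 0.650), the list median. It shares 398 exon bases with Itgb3bp on the other strand. G6pd2, the autosomal copy of G6pdx, was at no more than 0.30 CPM in p63alphaKO and 1.56 CPM in WT, and Tktl1 and Tktl2 were at 0 in all libraries.

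In the citric acid cycle, which provides the isocitrate that Idh2 uses, 0 of 17 tested genes were called by limma (1 before adjustment; edgeR 1 before adjustment and 0 called; DESeq2 1 called). The median was -0.17, with 12 negative. Sdhb, the iron-sulfur subunit of succinate dehydrogenase, was at 73.7, 69.3 and 69.5 CPM in p63alphaKO replicates 1, 2 and 3, against 108, 109 and 139 CPM in WT replicates 1, 2 and 3 (-0.72, 95% interval -1.12 to -0.33, adjusted p = 0.0652). The groups were well apart, and DESeq2 called it (adjusted p = 0.0425). Sdhc had a value of -0.49 (adjusted p = 0.438). Idh3a, a subunit of the NAD-dependent isocitrate dehydrogenase, averaged 32.9 CPM in p63alphaKO and 46.2 CPM in WT (-0.48, adjusted p = 0.385). The most abundant of the list, Ogdh and Mdh2, stood at -0.063 (adjusted p = 0.910) and -0.18 (adjusted p = 0.682), and Ogdh turned positive with trimmed-mean scaling (0.043). Mitochondrially encoded transcripts were lower in p63alphaKO in the same libraries, as given above.

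Citrate export and fatty acid synthesis, a main use of cytosolic NADPH, had 0 of 10 tested genes called by limma (1 before adjustment; edgeR 1 before adjustment and 0 called; DESeq2 0 either way), with 8 negative and a median of -0.21. Fasn, the fatty acid synthase, was at 121, 105 and 99.6 CPM in p63alphaKO replicates 1, 2 and 3, against 134, 167 and 148 CPM in WT replicates 1, 2 and 3, without overlap (-0.46, 95% interval -0.84 to -0.076, adjusted p = 0.222). Acaca, the acetyl-CoA carboxylase, stood at -0.57 (adjusted p = 0.348), and Scd2, a desaturase, at -0.34 (adjusted p = 0.465). Elovl1, an elongase of very long fatty acids and the most abundant gene of the list, averaged 706 CPM in p63alphaKO and 643 CPM in WT (0.14, adjusted p = 0.735).

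The glutathione and thioredoxin systems, which spend NADPH on peroxides and disulfides, were listed together with the catalase gene Cat. Of 15 tested genes 0 were called by limma. Gsr, the glutathione reductase that takes electrons from NADPH, was under the minimum mean for testing, as were Txnrd2, Gpx4, Prdx3 and Gss. Before adjustment 3 were under 0.05, beside 15.6% of all genes tested. By edgeR 3 were under 0.05 before adjustment and 0 called, and by DESeq2 3 before adjustment and 1 called. Fold changes were positive for 4 and negative for 11, with a median of -0.16. The groups did not overlap for 5 of the 15, against 21.0% of all genes tested. Txnrd1, the cytosolic thioredoxin reductase that takes electrons from NADPH, was at 154, 198 and 296 CPM in p63alphaKO replicates 1, 2 and 3, against 139, 112 and 82.8 CPM in WT replicates 1, 2 and 3 (0.93, 95% interval 0.41 to 1.45, adjusted p = 0.0669). It was the gene DESeq2 called (adjusted p = 0.0118), and limma called it without WT replicate 1 (adjusted p = 0.0406). In p63alphaKO the library with the highest Txnrd1 was replicate 3, which had the lowest Idh1. Cat, the peroxisomal catalase, averaged 49.9 CPM in p63alphaKO and 80.0 CPM in WT (-0.67, adjusted p = 0.0915), and Gclc, which starts glutathione synthesis, 7.71 CPM in p63alphaKO and 18.7 CPM in WT (-1.12, adjusted p = 0.196). Txnrd1 and Gclc also stand in the list of NRF2 and its targets. Prdx5 (409 exon bases shared with Trmt112 on the other strand) and Prdx1, the most abundant peroxidases of the list, stood at -0.21 (adjusted p = 0.554) and -0.24 (adjusted p = 0.559).

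Of NRF2, its repressor Keap1 and its targets, 12 were tested. By limma 1 was higher and 0 were lower, with a median of -0.055 that turned to 0.048 with trimmed-mean scaling. The 1 call of 12 stands beside 1.65% of all genes tested. Before adjustment 6 of 12 were under 0.05, beside 15.6% of all genes tested, and edgeR called 0 and DESeq2 2. Hmox1, the heme oxygenase, was at 39.5, 63.5 and 70.1 CPM in p63alphaKO replicates 1, 2 and 3, against 33.1, 20.8 and 19.2 CPM in WT replicates 1, 2 and 3, a rise of 1.21 (95% interval 0.61 to 1.81, adjusted p = 0.0451). Hmox1 was no longer called when p63alphaKO replicate 2 (adjusted p = 0.156) or replicate 3 (0.243) was left out, when WT replicate 2 (0.0974) or replicate 3 (0.0914) was left out, or by edgeR (0.0676). Of the 12 tested, 6 had positive and 6 negative fold changes. Txnrd1 (0.93, adjusted p = 0.0669) was among the positive ones with Hmox1. Among the negative ones was Gstm1, at 15.6 CPM in p63alphaKO and 29.5 CPM in WT (-0.94, adjusted p = 0.166). So was Keap1, listed as the repressor and not as a target (-0.58, adjusted p = 0.222), and it was under 0.05 before adjustment. The ferritin gene Fth1 had a value of 0.055 (adjusted p = 0.950). Nqo1, a quinone reductase that uses NADPH, was at no more than 1.41 CPM in p63alphaKO and 5.84 CPM in WT.

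The dioxygenases that consume 2-oxoglutarate, the product of Idh1, had 13 members tested, 1 higher and 1 lower, with a median of -0.034 that turned to 0.072 with trimmed-mean scaling, and 8 members whose groups did not overlap. Over all genes tested 1.65% were called and 21.0% did not overlap. Both edgeR and DESeq2 called 3, beside 82 by edgeR and 317 by DESeq2 of all 7464 genes tested. Egln3, an oxygen-sensing prolyl hydroxylase, was at 259, 255 and 271 CPM in p63alphaKO replicates 1, 2 and 3, against 157, 165 and 151 CPM in WT replicates 1, 2 and 3, a rise of 0.73 (95% interval 0.39 to 1.07, adjusted p = 0.0313). Its libraries lay close together within each genotype, unlike those of Idh1, and it was not called when any 1 p63alphaKO library was left out (adjusted p = 0.117 without replicate 1, 0.122 without replicate 2 and 0.160 without replicate 3). Bbox1, which makes carnitine, was at 4.52, 2.33 and 4.47 CPM in p63alphaKO replicates 1, 2 and 3, against 31.2, 12.7 and 29.9 CPM in WT replicates 1, 2 and 3, and fell by 2.36 (95% interval -3.36 to -1.36, adjusted p = 0.0191). It was not called when any 1 library other than WT replicate 2 was left out (adjusted p from 0.0565 to 0.0873). Fibroblast, muscle and blood markers were lower in the same libraries, and their part in the Bbox1 value was not tested. Tet2, which oxidises methylcytosine in DNA, was at 63.2, 57.4 and 54.3 CPM in p63alphaKO replicates 1, 2 and 3, against 33.1, 28.6 and 32.7 CPM in WT replicates 1, 2 and 3 (0.87, 95% interval 0.42 to 1.32, adjusted p = 0.0544). Tet2 passed the test with trimmed-mean scaling (adjusted p = 0.0302) and by edgeR (0.0430). It was not called by limma when any 1 library was left out (adjusted p from 0.0532 to 0.180), with no filter (0.0753) or with a replicate block (0.094). Tet3 had a value of -0.034 (adjusted p = 0.966) that turned to 0.072 with trimmed-mean scaling.

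**Figure D4:**
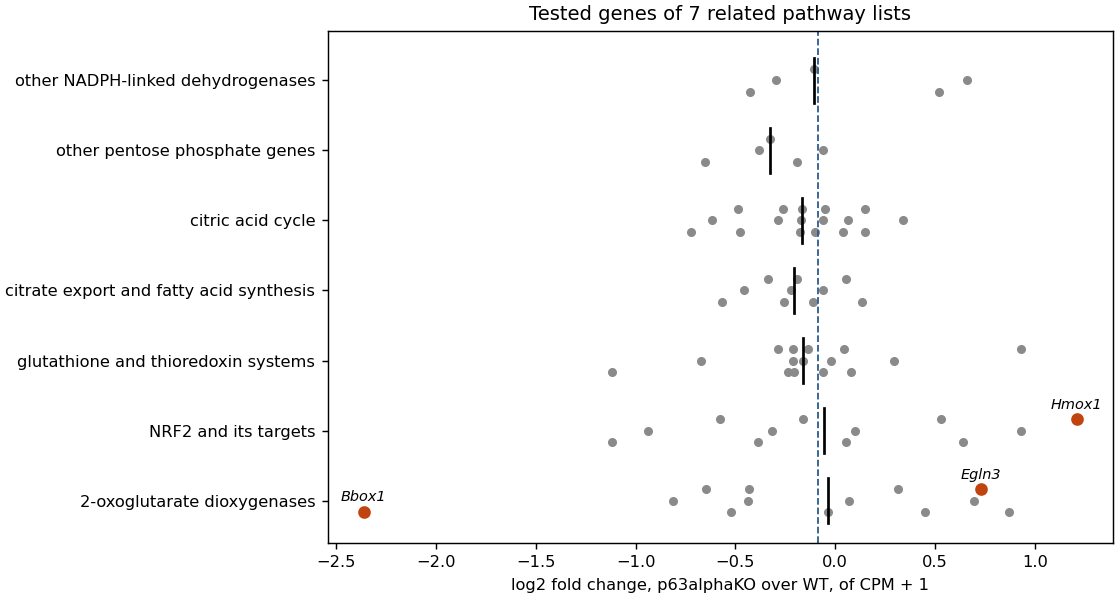
Log2 fold change of CPM + 1, p63alphaKO over WT (horizontal axis), of each tested gene in the 7 pathway lists; larger orange points passed limma's test and are named, black ticks are list medians, and the dashed line is the median of all genes tested (-0.085). The passing genes are Hmox1 (1.21), Egln3 (0.73) and Bbox1 (-2.36), and list medians lie between -0.33 and -0.034, those of the NRF2 and dioxygenase lists turning positive with trimmed-mean scaling.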

How the data were processed

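Epidermal mRNA of 6 libraries (3 p63alphaKO, 3 WT) was sequenced from transcript 3' ends. Per the submitters' processing notes the authors used STAR, HTSeq and mm10; their versions, the annotation and the strand setting were not stated there. The deposited values, named normalized counts, are CPM, since the libraries sum to 999157 to 999401. All values were whole multiples of what 1 read stands for (tolerance 0.0055 CPM; 100% whole), which gave the reads per library. Means of 10 CPM correspond to 25.7 to 44.8 reads.

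Genotypes were compared two-sided by limma-trend on log2(CPM + 1), without covariates (R 4.3.3, limma 3.58.1). The 7464 genes averaging 10 CPM or more entered, p-values were Benjamini-Hochberg adjusted, and 123 genes were called (adjusted p under 0.05). The planned edgeR test needs counts, so edgeR 4.0.16 and DESeq2 1.42.0 were run on the recovered reads as alternatives (82 and 317 calls). Alternatives also covered scaling, pseudocount, filter, left-out libraries and a replicate block. An exact permutation test of 3 libraries against 3 cannot go below 0.1 and was not used. Members and lists were chosen with earlier results of these data known. The naming rule took all members, of each list the called genes, the 3 with the smallest p and the 2 most abundant, and the 5 genes nearest to Idh1. Gene models were GENCODE M21 (mm10), which held 99.6% of the gene IDs, and promoter windows RefSeq (GRCm38.p6).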

Additional observations from a re-analysis of the deposited data

How the results depend on the processing

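Under the 17 alternatives Idh1 had fold changes of 1.43 to 2.04, and 0 of the other members were called in any (lowest adjusted p 0.230). The count of called genes was 317 by DESeq2 and 36 with a minimum mean of 50 CPM, and ran from 37 to 186 with 1 library left out (37 without p63alphaKO replicate 3, 46 without p63alphaKO replicate 1, 67 without p63alphaKO replicate 2, 186 without WT replicate 1), against 123. The citric acid cycle and the glutathione and thioredoxin lists had 1 call each by DESeq2, the last also 0 to 1 with 1 library left out. The list of NRF2, Keap1 and targets had 0 calls by edgeR, with no filter and with a minimum mean of 50, 2 by DESeq2, and 0 to 2 with 1 library left out. The dioxygenases had 1 call with a minimum mean of 50 and 0 to 2 with 1 library left out. Uncalled values changed sign as follows, by edgeR, DESeq2, trimmed-mean and upper quartile scaling in turn: G6pdx to 0.017, 0.030, 0.054 and 0.083 (0.053 after quantile normalization), Ogdh to 0.0080, 0.023, 0.043 and 0.073, and Tet3 to 0.032, 0.047, 0.072 and 0.10. With 1 library left out the ranges were -0.20 to 0.029 for G6pdx, -0.035 to 0.22 for Tkt, -0.066 to 0.20 for Taldo1, -0.17 to 0.045 for Ogdh, -0.24 to 0.40 for Fth1 and -0.26 to 0.094 for Tet3. The causes were not tested.

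The labels state no pairing by replicate number. Deviations from the group means correlated at -0.023, 0.066 and -0.11 between libraries of the same number. With 3 libraries per genotype such values cannot show whether libraries of the same number were paired. In both genotypes Xist was high in replicate 2 (473 CPM in p63alphaKO, 683 CPM in WT). With the number as a replicate block 127 genes were called, and 0 of the members other than Idh1. The NRF2 list had 0 calls and the dioxygenases 1, since Hmox1 and Egln3 were no longer called (adjusted p = 0.0660 each). With 4 reads in all libraries, Nnt gave no value that could be compared.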
